A study of Mus musculus with 9 samples.

Results

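The dense peak clusters are stretches of the mouse genome in which ZEB1 peaks lie close together. The deposited consensus list of peaks was sorted by chromosome and start, neighbouring peaks were chained while the gap between them was 12.5 kb or less, and chains of 5 or more peaks were kept. This gave 2696 of 23623 consensus peaks (11.4%), in 427 clusters out of 15349 chains. No count entered the rule, but the positions are the authors' peak calls from these same data. The choice of members is therefore not independent of the signal in the groups compared below. ZEB1 binding was measured by CUT&RUN, in which a nuclease tethered to an antibody cuts out the DNA around the bound protein, in PB3 cells. This line comes from mouse breast cancer, and its labels give it as lacking the oestrogen receptor, the progesterone receptor and HER2. Control libraries (n = 2) came from untreated cells with the line label PB3-Parental, and 2 libraries each came from cells after 24, 48 and 72 h of 300 nM eribulin with the line label PB3_ERI. The label of the treatment is spelled Erubilin and the treatment protocol gives eribulin. All eribulin libraries carry a different line label from the controls, so treatment and line label cannot be told apart. A library made with IgG in place of the ZEB1 antibody, from untreated PB3-Parental cells, served the authors' peak calls and has no counts in the table used here. The labels do not say whether replicates were separate cultures, so the p-values below measure only the spread between these libraries, which may be technical. The receptor status on the labels was not checked, since binding data hold no expression.

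ZEB1 is a zinc-finger and homeodomain transcription factor that drives epithelial-mesenchymal transition. It binds E-box sequences, best known as CAGGTG or CACCTG, and recruits corepressors to epithelial genes such as those of cell adhesion and keratins, and it can also act beside AP-1 and YAP at other genes. Regions where many binding sites crowd within a few kilobases often overlie large enhancers or rows of closely spaced genes, and stitching peaks by distance is the usual way of finding them. Eribulin is a microtubule inhibitor used against breast cancer.

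The promoters of 7 genes are printed because a peak of a dense cluster overlaps each of them and the results below return to them. They are RefSeq windows from 250 bases before to 50 bases after the start of transcription, on GRCm38.p6, given 5′ to 3′ on the strand of the gene. Capitals mark each E-box of the form CAGGTG or CACCTG on either strand. The peaks at Lama5 (chr2:180225390-180225942), Zc3h12a (chr4:125127781-125127991) and Krt18 (chr15:102028092-102028538) overlap only part of their windows. The marked E-boxes of Lama5 and Krt18 lie outside the peak, and that of Zc3h12a lies inside it. These E-boxes lie in all 3 of the printed promoters whose peak was higher, but in only 12 of 53 such windows (22.6%), beside 20.2% of all windows. The 3 are therefore not typical. Lama5 (chr2:180225810-180226109, minus strand), B3gat3 (chr19:8920143-8920442, plus strand) and Zc3h12a (chr4:125127832-125128131, minus strand) are these promoters, whose peak was higher after eribulin.
Lama5: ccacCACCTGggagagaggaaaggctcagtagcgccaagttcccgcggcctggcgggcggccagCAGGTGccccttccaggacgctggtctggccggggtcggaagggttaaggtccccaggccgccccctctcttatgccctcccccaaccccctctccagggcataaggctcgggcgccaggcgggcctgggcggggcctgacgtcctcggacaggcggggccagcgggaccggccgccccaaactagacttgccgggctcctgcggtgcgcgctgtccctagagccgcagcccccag
B3gat3: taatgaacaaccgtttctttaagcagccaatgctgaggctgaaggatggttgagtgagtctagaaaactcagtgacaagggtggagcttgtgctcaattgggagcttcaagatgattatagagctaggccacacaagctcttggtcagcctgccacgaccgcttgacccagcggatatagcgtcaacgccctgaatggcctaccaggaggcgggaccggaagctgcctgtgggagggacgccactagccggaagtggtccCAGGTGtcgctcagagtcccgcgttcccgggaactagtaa
Zc3h12a: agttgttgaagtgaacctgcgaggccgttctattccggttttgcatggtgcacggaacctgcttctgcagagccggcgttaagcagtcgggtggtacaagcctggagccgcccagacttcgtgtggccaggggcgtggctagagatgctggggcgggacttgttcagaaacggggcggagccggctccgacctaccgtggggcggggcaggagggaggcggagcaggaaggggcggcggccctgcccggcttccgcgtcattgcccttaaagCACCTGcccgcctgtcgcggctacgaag
The promoter peaks of Krt8 (chr15:102004293-102004592, minus strand), Jun (chr4:95052173-95052472, minus strand) and the histone gene H3c14 (chr3:96246435-96246734, plus strand) were lower after eribulin. Krt18 (chr15:102027966-102028265, plus strand) lies in the same cluster as Krt8 and its peak did not pass the test.
Krt8: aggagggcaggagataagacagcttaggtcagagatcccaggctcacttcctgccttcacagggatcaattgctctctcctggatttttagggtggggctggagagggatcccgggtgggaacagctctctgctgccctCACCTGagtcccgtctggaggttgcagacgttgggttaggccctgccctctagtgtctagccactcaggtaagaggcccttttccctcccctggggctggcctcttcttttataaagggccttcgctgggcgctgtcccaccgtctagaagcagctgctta
Krt18: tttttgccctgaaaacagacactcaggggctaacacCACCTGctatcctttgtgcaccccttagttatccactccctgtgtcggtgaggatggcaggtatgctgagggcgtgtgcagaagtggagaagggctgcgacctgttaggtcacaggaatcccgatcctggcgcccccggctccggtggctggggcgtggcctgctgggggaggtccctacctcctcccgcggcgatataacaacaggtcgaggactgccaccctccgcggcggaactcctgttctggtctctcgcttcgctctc
Jun: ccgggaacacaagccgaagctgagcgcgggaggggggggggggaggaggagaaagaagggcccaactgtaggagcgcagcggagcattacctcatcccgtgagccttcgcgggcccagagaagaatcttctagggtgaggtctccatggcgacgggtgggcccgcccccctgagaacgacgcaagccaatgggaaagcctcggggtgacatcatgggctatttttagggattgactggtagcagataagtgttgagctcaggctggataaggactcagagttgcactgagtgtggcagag
H3c14: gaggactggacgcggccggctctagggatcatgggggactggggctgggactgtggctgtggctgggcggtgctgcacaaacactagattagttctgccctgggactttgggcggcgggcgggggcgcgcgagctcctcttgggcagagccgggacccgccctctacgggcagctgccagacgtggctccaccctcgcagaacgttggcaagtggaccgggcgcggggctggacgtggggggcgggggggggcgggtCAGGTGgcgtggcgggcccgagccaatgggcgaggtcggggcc

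Such an E-box was found in 20.2% of 32817 full-length promoter windows of the mouse genome, in 16.4% of the 7300 that overlap any consensus peak, and in 17.7% of the 496 that overlap a peak of a dense cluster. It was in 12 of the 53 windows overlapping a member peak that rose after eribulin (22.6%) and in 3 of the 41 overlapping one that fell (7.32%). The AP-1 motif TGANTCA, which has the same fixed bases on both strands and can share its last bases with an E-box, was in 7.81% of all windows, in 8.27% of the 496, in 0 of the 53 and in 3 of the 41. Over the 3 times 37 promoter member peaks were higher and 29 lower, so that several of these windows share a peak. The median share of G and C bases was 64.0% in the 53 windows and 51.7% in the 41. The lower promoter peaks lay in part at histone, small nuclear RNA and transfer RNA genes, as given below. Differences between these sets of windows were not tested. A match says only that these letters lie in the window, which a peak may overlap only in part.

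Library depth ran from 326944 counts in peaks (72 h replicate 2) to 765015 (48 h replicate 1), and the 2 controls held 372896 and 672582. Replicates of each group differed by about as much as 2 random draws from 1 pool, with a chi-square per degree of freedom between 0.931 and 1.06 over the 4 groups. None of the 4 pairs stood apart. Technical copies of 1 sample would differ by about as much, so these values do not show that replicates were independent. Each library was still counted as 1 replicate, and the p-values may reflect little more than the sampling of reads. Of the member peaks, 2429 of 2696 passed the filter on low counts and 267 did not, and all 427 clusters passed once their peaks were summed. Counts scaled to a common library size (CPM) below compare a peak with the rest of its library, so that no change common to the whole genome is visible, and in bulk samples fewer cells with a bound site and less signal per cell cannot be told apart. All comparisons with untreated cells share the same 2 controls.

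The clusters were mostly small. Of the 427, 202 held 5 peaks, 101 held 6 and 44 held 7, while 31 held 10 or more and the largest held 20. They spanned 3.01 to 67.8 kb with a median of 22.5 kb, and together 10.5 Mb, of which the peaks themselves covered a median of 2.49 kb per cluster. The widest gap inside a cluster was 12460 bp and the narrowest gap after one was 12503 bp, and 367 further chains held 4 peaks and so stayed just outside the rule. Signal within a cluster was uneven: the highest peak held a median of 35.1% of the counts of its cluster, from 14.2% to 86.2%.

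Protein-coding or microRNA genes overlapped 336 of the 427 clusters, 63 more lay within 50 kb of one, and 28 had none in that distance. A further division by layout gave 91 clusters lying whole inside 1 gene, such as those in Cubn, which encodes an endocytic receptor of the kidney and gut, and 120 spanning 2 or more protein-coding genes. At least 1 peak touched a promoter window in 222 clusters, and no peak did in the other 205. Chromosome 19 held the highest share of its peaks in dense clusters (194 of 853, 22.7%, in 28 clusters), followed by chromosome 11 (16.5%), and chromosome X the lowest (3.04%). Being close to a peak is no evidence that a gene is a target of ZEB1.

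Member peaks were more often away from promoters than consensus peaks as a whole. Promoter windows were touched by 395 of them (14.7%) against 23.8% of all consensus peaks, and 41.6% lay inside a gene more than 1 kb from its ends against 36.2%. Member peaks were also slightly wider, with a median of 380 against 347 bp, and higher, with a median of 41.5 against 35.5 CPM among tested peaks. In the authors' deposited peak lists, 1 per group, the share of member peaks present was 80.5% (95% Wilson interval 79.0 to 81.9, for counting error only) in the control list, 69.7% (67.9 to 71.4) in that of 24 h, 61.5% (59.6 to 63.3) in that of 48 h and 54.9% (53.0 to 56.8) in that of 72 h, where the same shares over all consensus peaks were 78.7%, 63.0%, 60.2% and 51.6%. Peaks present in all 4 lists made up 40.2% of members and 34.7% of all peaks, and peaks of the control list alone made up 16.6% and 19.0%. The lists fell in length from 18749 to 12420 peaks, and so did the number of clusters that the same rule found in each list alone: 237 in the control list, 171 at 24 h, 118 at 48 h and 93 at 72 h. Peaks in the lists are named for replicate 1 of each group against IgG, and the sources used here do not say how the other replicate entered them.

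The share of each library's counts that fell in dense clusters was slightly lower at 48 and 72 h. The control libraries held 13.9% and 14.1% there and those of 24 h 13.9% and 13.9%, while 48 h gave 13.1% and 13.3% and 72 h gave 13.2% and 13.2%. All 6 eribulin libraries lay below both controls, with a mean of 13.5% ± 0.345 (SD, n = 6) against 13.996% ± 0.0803 (SD, n = 2), a difference of -0.545 percentage points. The exact two-sided permutation test gave p = 0.0714, the smallest value that 2 against 6 libraries allow, and 0.119 after Benjamini-Hochberg adjustment over 5 such tests. Member peaks outside genes went from 6.34% of counts to 5.76% (exact permutation p = 0.0714, adjusted 0.119), and peaks outside genes elsewhere in the genome went from 31.3% to 28.9% with the same p values from the same exact permutation test. Member peaks at promoters held 2.38% in controls and 2.41% after eribulin (exact permutation p = 0.929, adjusted 0.929). Peaks outside the dense clusters that lie at promoters held 22.9% and 26.0% of counts (exact permutation p = 0.143, adjusted 0.179), and no test of this family passed an adjusted 0.05.

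Among single member peaks, eribulin changed about as many as elsewhere. Over the mean of the 3 times, edgeR's quasi-likelihood test at a Benjamini-Hochberg adjusted p below 0.05 called 181 member peaks higher and 257 lower, 18.0% of those tested against 16.8% of all peaks tested, of which 8.27% were higher and 8.53% lower. At 24 h it called 166 higher and 148 lower (12.9%), against 11.0% of all peaks (6.44% higher, 4.61% lower). At 48 h it called 131 and 193 (13.3%), against 11.5% (6.09% and 5.41%). At 72 h it called 135 and 167 (12.4%), against 12.6% (6.84% and 5.74%). These total shares are near the background. By direction, 6.09%, 7.95% and 6.88% of tested member peaks were lower at 24, 48 and 72 h, and 10.6% over the 3 times. The higher shares were 6.83%, 5.39%, 5.56% and 7.45% in the same order. Lower calls were thus somewhat more frequent than among all peaks in each comparison, a difference that was not tested. With all tested peaks split by CPM into 4 equal bins, 22.4% of members and 21.5% of other peaks were called in the highest bin, and 15.3% and 13.4% in the lowest. The median log2 fold change over the 3 times was -0.07 for tested member peaks and -0.01 for all tested peaks. The count of called member peaks fell to 106 without control replicate 2, 271 without control replicate 1 and 40 with DESeq2. At single times the counts also fell by over 1.5 times without control replicate 2 (83, 74 and 96 at 24, 48 and 72 h), without control replicate 1 (188 at 24 h and 209 at 48 h) and without either library of the time concerned (178 and 151 at 24 h, 168 and 200 at 48 h, 114 and 175 at 72 h).

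Summed over their peaks, clusters were called more often than other chains, and from 48 h on more often lower than higher. The peaks that define the clusters came more often from the control list. All peaks of a cluster were in the control list in 121 of the 427, in that of 24 h in 62, in that of 48 h in 26 and in that of 72 h in 17. How far this choice of members shaped the balance of higher and lower calls was not tested. Over the mean of the 3 times 62 clusters were higher and 96 lower, 37.0% of 427 against 20.0% of all 14387 chains tested, of which 9.84% were higher and 10.1% lower. At 24 h 68 were higher and 55 lower (28.8%), against 13.2% of all chains (7.6% and 5.63%). At 48 h 40 were higher and 86 lower (29.5%), against 14.5% (7.53% and 6.96%). At 72 h 46 were higher and 94 lower (32.8%), against 17.0% (8.83% and 8.15%). A chain with more peaks holds more counts, and chains of 2 to 4 peaks with a CPM in the range of the dense clusters (at or above their lower quartile, n = 364, a set chosen after the data were seen) were called about as often, 12.6% higher and 22.5% lower over the 3 times against 14.5% and 22.5% of dense clusters. At 24 h these chains were 10.7% higher and 15.1% lower against 15.9% and 12.9% of dense clusters, at 48 h 7.97% and 19.5% against 9.37% and 20.1%, and at 72 h 8.24% and 18.4% against 10.8% and 22.01%. The difference between these shares was not tested. The counts of calls at all 3 times, given next, have no share over other chains beside them. They do not show that dense clusters stand apart. Of the clusters, 19 were higher at all 3 times and 39 lower at all 3, and without control replicate 2 these counts were 6 and 16. Over the 3 times the direction of the balance was the same without control replicate 2, when 18 were higher and 40 lower, without control replicate 1 (33 and 68) and with DESeq2 (9 and 33). At 24 h the balance turned, with 40 higher and 46 lower without control replicate 1, 36 and 44 on libraries thinned to 1 depth, 7 and 10 with DESeq2 and 60 and 61 with its scaling method. At 24 h the total fell to 54 without control replicate 2 and 79 without 24 h replicate 2, at 48 h to 48 without control replicate 2, and at 72 h to 63, 64 and 81 without control replicate 2, 72 h replicate 1 and 72 h replicate 2.

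**Figure D1:**
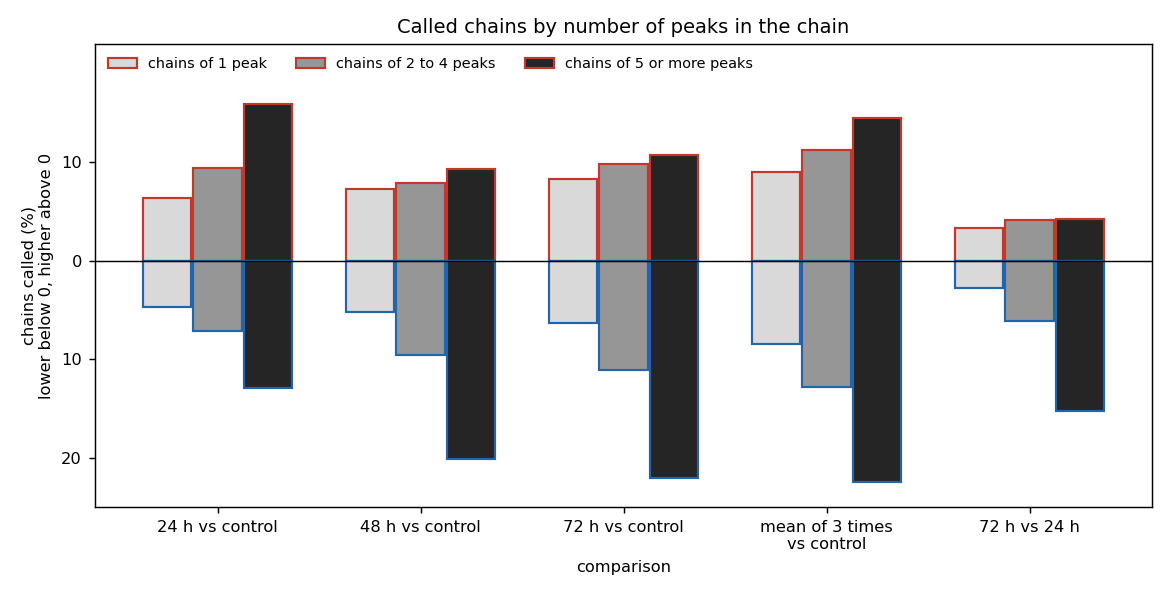
Percent of tested chains called higher (bars above 0) and lower (bars below 0) by edgeR in each comparison, for chains of 1 peak, 2 to 4 peaks and 5 or more peaks. Chains of 5 or more peaks have the longest bars for lower calls, 22.5% over the mean of the 3 times against 12.8% and 8.42% of the shorter chains, and they also hold the most counts per chain.

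**Figure D2:**
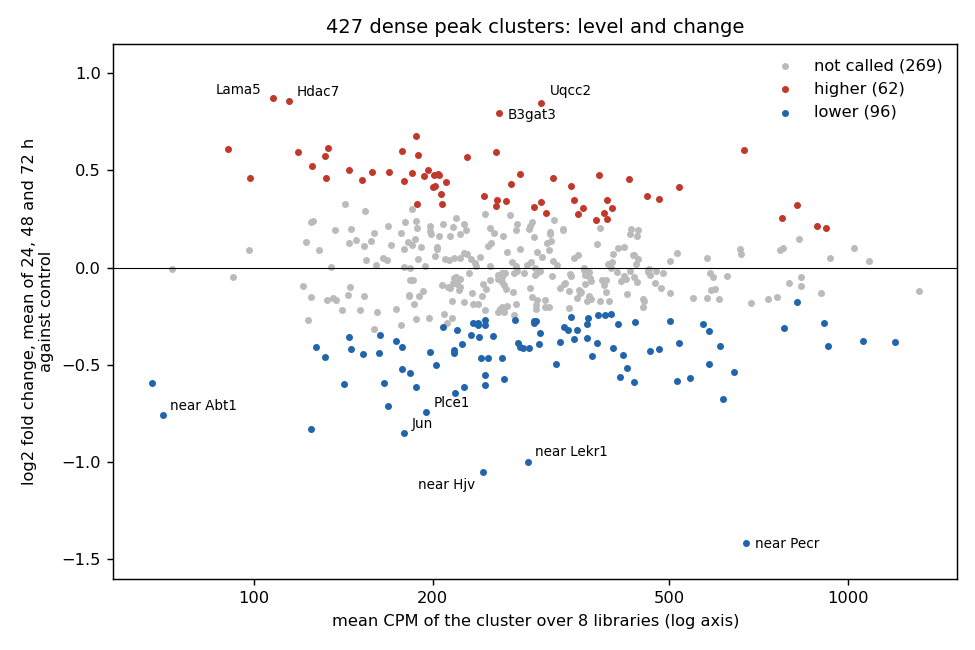
Each point is 1 of 427 clusters, with its mean CPM over 8 libraries on a log axis and its log2 fold change over the mean of the 3 times against control. The 62 clusters called higher reach 0.87, the 96 called lower reach -1.41, and 269 were not called.

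Rises over the 3 times reached 0.87 on the log2 scale. The clusters below are the 8 largest rises among called clusters whose control and eribulin values do not overlap. The lack of overlap in each was therefore set by the choice and adds no support. The largest was the cluster of 5 peaks in Lama5, the laminin alpha-5 chain of basement membranes (chr2:180214480-180225942). Its summed level was 57.0 and 72.6 CPM in untreated cells, 122 and 116 after 24 h, 125 and 121 after 48 h, and 141 and 107 after 72 h. Every eribulin library lay above both controls, from 24 h on (log2 fold change 0.87, SE 0.178, adjusted p = 4.41e-05), and 3 of its 4 tested peaks passed. The promoter peak printed above was among them, close to the threshold (log2 fold change 0.95, SE 0.346, adjusted p = 0.047). It held 13.8 and 16.8 CPM in untreated cells, below the median of 35.5 CPM over all tested peaks. Hdac7, a class IIa histone deacetylase, had a cluster of 8 peaks (chr15:97810438-97850211) at 86.8 and 62.0 CPM in untreated cells, 137 and 118 after 24 h, 129.9 and 111 after 48 h, and 146 and 126 after 72 h. Its control and eribulin values do not overlap (log2 fold change 0.85, SE 0.174, adjusted p = 4.19e-05), but without control replicate 2 the adjusted p was 0.181, and 1 of its 5 tested peaks passed.

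In the cluster over Uqcc2, an assembly factor of respiratory complex III, and Ip6k3, an inositol hexakisphosphate kinase (chr17:27131459-27161666), the level was 193 and 186 CPM in untreated cells, 399 and 335 after 24 h, 304 and 304 after 48 h, and 345 and 365 after 72 h. It rose at each time (log2 fold change 0.85, SE 0.11, adjusted p = 6.08e-12), and a single peak inside Ip6k3 at chr17:27160768-27161352 carried the largest rise of any member peak named here, from 11.0 and 18.3 CPM in untreated cells, 78.4 and 83.2 after 24 h, 82.0 and 73.6 after 48 h, and 92.5 and 100.4 after 72 h (log2 fold change 2.41, SE 0.281, adjusted p = 3.46e-11). It was the 1 of the cluster's 6 tested peaks to pass on its own, and the other 5 had log2 fold changes of 0.44 to 0.71. The cluster of B3gat3, which builds the linker of glycosaminoglycan chains, Rom1, Eml3, the chromatin factor Mta2 and Tut1 (chr19:8920131-8953914) stood at 152 and 177 CPM in untreated cells, 273 and 283 after 24 h, 298 and 245 after 48 h, and 342 and 298 after 72 h. All 5 of its peaks touch a promoter window, and those of B3gat3 (1.00) and of Eml3 and Rom1 (1.04) passed the test on their own. Zc3h12a, which encodes the RNase regnase-1 that degrades inflammatory transcripts, had a cluster of 6 peaks at 122 and 133 CPM in untreated cells, 200.1 and 203 after 24 h, 204 and 186 after 48 h, and 205 and 246 after 72 h (log2 fold change 0.68, SE 0.133, adjusted p = 1.94e-05). Its printed promoter overlaps a low peak, at 11.0 and 19.9 CPM in untreated cells, that rose by 1.03 (SE 0.333, adjusted p = 0.0225).

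The remaining 3 of these rises were smaller. They were Pcyt2-Sirt7-Mir6936, with an enzyme of phosphatidylethanolamine synthesis and a nucleolar deacylase (0.62, adjusted p = 0.00146, and 0.136 without control replicate 2), Ptpn21-Zc3h14 (0.60, adjusted p = 0.000238, and 0.0717 with DESeq2) and the row of 11 protein-coding genes from Tmem115 to Ifrd2 on chromosome 9. That row holds Nprl2, a subunit of the GATOR1 complex that restrains mTORC1, the Ras-association gene Rassf1 and 3 hyaluronidase genes. Its 10 peaks, 7 of them at promoters, summed to 510.1 and 455 CPM in untreated cells, 770.0 and 716 after 24 h, 699 and 688 after 48 h, and 721 and 774 after 72 h (log2 fold change 0.61, SE 0.0793, adjusted p = 9.14e-12). Both controls lay below every eribulin library, 4 peaks passed as higher and none as lower.

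The falls, chosen by the same rule of no overlap, were deeper. The deepest lay near Pecr, a peroxisomal enoyl-CoA reductase gene (chr1:72225923-72256677), in a cluster of 6 peaks that overlaps no protein-coding gene and holds 4 small nuclear RNA genes and the lncRNA D230017M19Rik. Its level was 1256 and 1229.5 CPM in untreated cells, 700.5 and 625 after 24 h, 374 and 409.9 after 48 h, and 356 and 436 after 72 h. The controls lay well above all 6 eribulin libraries, and the 48 and 72 h libraries below those of 24 h (log2 fold change -1.41, SE 0.0682, adjusted p = 6.15e-91). Log2 fold changes were -0.91, -1.67 and -1.66 at 24, 48 and 72 h. Of its 5 tested peaks 4 passed as lower, and the outermost, at chr1:72225923-72228148, went from 567 and 514 CPM in untreated cells, 247 and 225 after 24 h, 99.2 and 128 after 48 h, and 122 and 107 after 72 h. Small nuclear RNA genes have near-identical copies, and the sources used here do not say how reads with several matches were counted, so levels at such loci are uncertain. The cluster near Hjv, the gene of the iron regulator hemojuvelin (chr3:96485549-96497818), holds 2 small nuclear RNA genes and 1 transfer RNA gene and had 415 and 384 CPM in untreated cells, 190.0 and 220.5 after 24 h, 175 and 182 after 48 h, and 192 and 184 after 72 h (log2 fold change -1.05, SE 0.0998, adjusted p = 8.69e-23).

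The cluster near Lekr1 (chr3:65869748-65886177) holds no gene and no promoter window, and all 5 of its peaks were lower. Its level went from 450.4 and 461 CPM in untreated cells, 275 and 310.3 after 24 h, 252 and 236 after 48 h, and 176 and 154 after 72 h, a step down at each time (log2 fold change -0.998, SE 0.0943, adjusted p = 7.07e-23). The 7 peaks around Jun, the AP-1 subunit c-Jun (chr4:95026265-95052666), summed to 279 and 260.1 CPM in untreated cells, 151 and 167 after 24 h, 129.9 and 132 after 48 h, and 148 and 166 after 72 h. Control and eribulin values do not overlap (log2 fold change -0.85, SE 0.116, adjusted p = 8.64e-11), and the promoter peak printed above, which covers Jun and its antisense partner Junos, stood at 165 and 135 CPM in untreated cells, 63.1 and 92.8 after 24 h, 86.0 and 78.7 after 48 h, and 87.8 and 107 after 72 h (log2 fold change -0.76, SE 0.154, adjusted p = 0.000161). Falls also met the rule near Abt1, which holds 7 transfer RNA genes (-0.76, adjusted p = 0.000812, and 0.110 without control replicate 1), in Plce1, a phospholipase C (-0.74), and in a stretch near the transporter gene Slc22a23 (-0.71). Of the 16 clusters that met the rule, 14 passed without control replicate 2 and 13 with DESeq2.

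**Figure D3:**
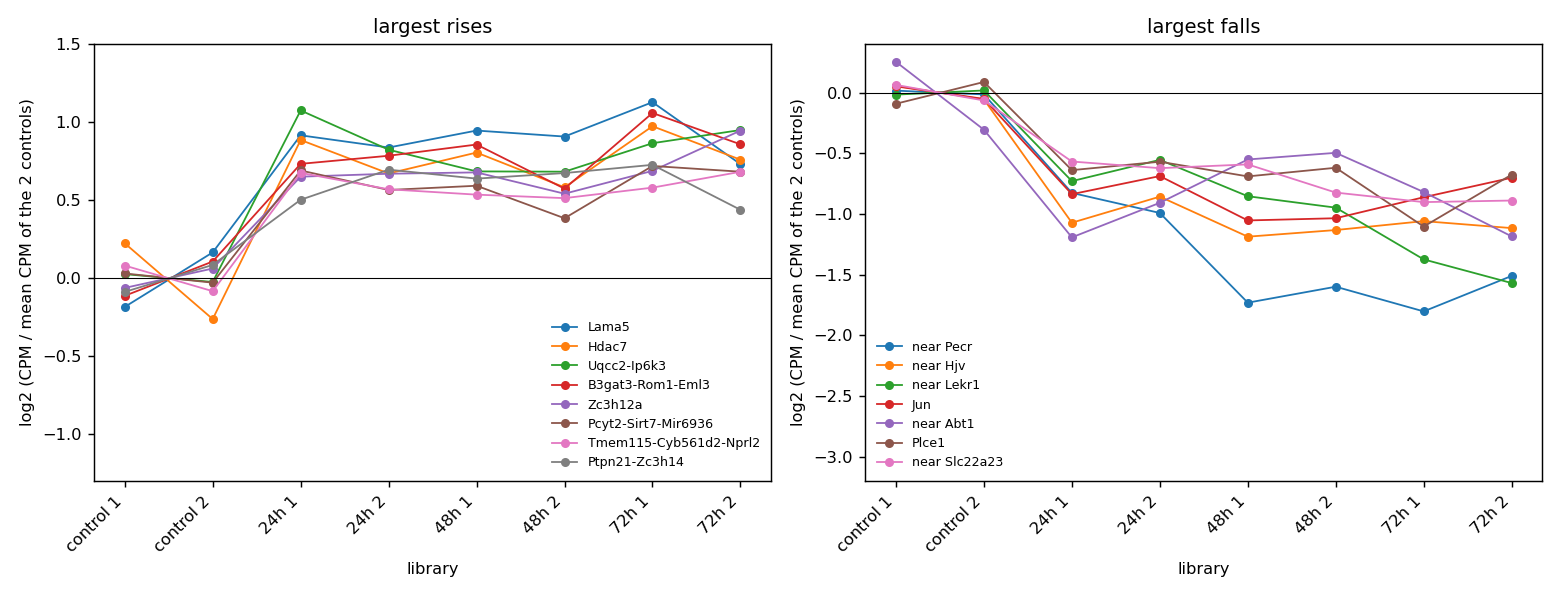
Log2 of the CPM over the mean of the 2 controls in each of 8 libraries, with lines joining the values of 1 cluster, for the 8 rises (left) and 7 falls (right) named in the text. In both panels the 6 eribulin libraries lie on 1 side of the controls, because the clusters were chosen for that. The cluster near Pecr is the lowest in both 48 h libraries.

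The clusters with the most peaks changed little as a whole. The largest covers the lncRNA genes Neat1 and Malat1, which scaffold nuclear bodies and speckles, beside Frmd8 (chr19:5786722-5850425, 20 peaks over 63.7 kb). Its level was 1096 and 1036 CPM in untreated cells, 1121 and 1068 after 24 h, 1026 and 1066 after 48 h, and 1086 and 1164 after 72 h, groups that overlap (log2 fold change 0.03, SE 0.0649, adjusted p = 0.758). Inside it 2 peaks were higher (0.58 and 1.01) and 2 lower (-0.73 and -0.95). The peak at the Malat1 start itself gave -0.76 with an adjusted p of 0.0756. Mcl1-Adamtsl4, around the survival gene Mcl1 (15 peaks, -0.16), Actn4-Eif3k-Map4k1, around alpha-actinin-4 (14 peaks, 0.07), Fosb-Ercc1 (13 peaks, -0.09), Socs3-Pgs1, around the cytokine-signalling inhibitor Socs3 (13 peaks, -0.15), Chd3-Cyb5d1-Naa38 (-0.11) and Dlgap1 (-0.12) did not pass over the 3 times. Dlgap1, a gene of the postsynaptic scaffold, was among the highest at 1397 and 1394 CPM in untreated cells, 1426 and 1334 after 24 h, 1195 and 1304 after 48 h, and 1219 and 1256 after 72 h. Without the highest peak of each cluster, Dlgap1 (-0.19, adjusted p = 0.0203) and Socs3-Pgs1 (-0.21, adjusted p = 0.0332) passed as lower. Cbarp-Atp5d-Midn then did not pass (0.14, adjusted p = 0.173). The calls given next keep all peaks. Of the 10 clusters with the most peaks, 2 passed: the row of histone genes H4c8-H2ac10-H3c8 (14 peaks, -0.38) and Cbarp-Atp5d-Midn (13 peaks, 0.21, adjusted p = 0.0176, and 0.189 and 0.111 without control replicates 1 and 2). Itga3, the integrin alpha-3 chain that binds laminins, passed at 24 h alone, with 738 and 733 CPM in untreated cells, 899 and 942 after 24 h, 702 and 747 after 48 h, and 817 and 645 after 72 h and a log2 fold change of 0.33 at that time (adjusted p = 0.00222, and 0.0766 without control replicate 2).

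**Figure D4:**
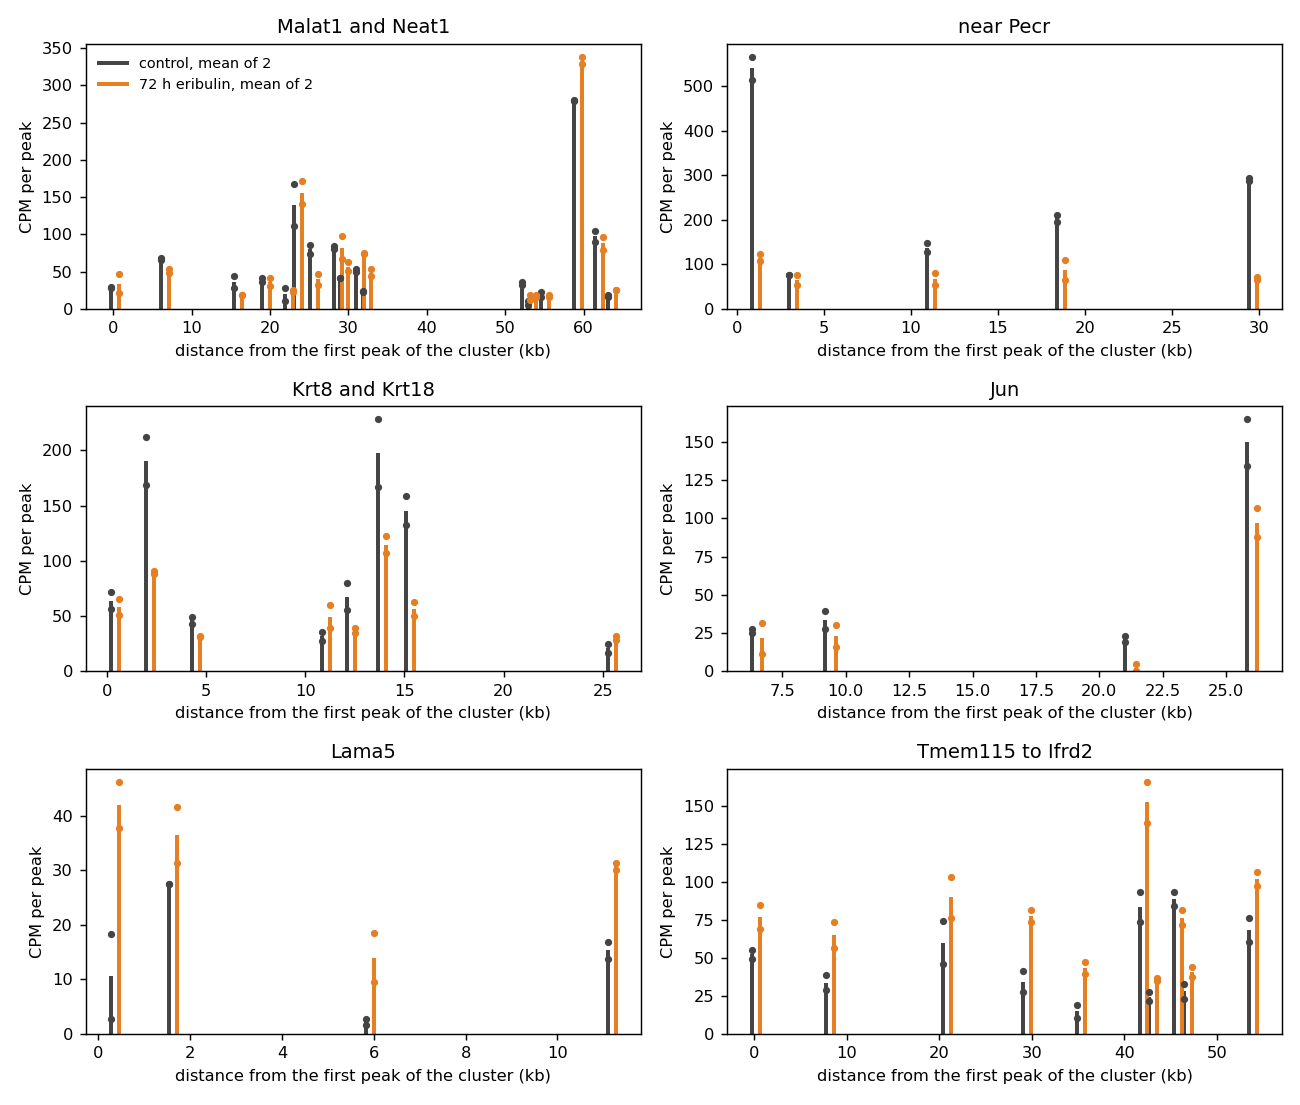
CPM of each tested peak along 6 clusters, against its distance in kb from the first peak of the cluster, in controls (dark grey) and at 72 h (orange). Bars are the mean of 2 libraries, those of 72 h drawn just right of those of the controls, and points are the libraries, and the cluster near Pecr shows its highest peak, at its left edge, going from 567 and 514 to 122 and 107 CPM.

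Peaks of a cluster changed together in part. No member peak was called over the 3 times in 156 clusters, 1 in 165, and 2 or more in 106, of which 31 had all higher, 50 all lower and 25 both directions. In 35 clusters 3 or more peaks passed in 1 direction, 7 higher and 28 lower. Without control replicate 2 these were 0 and 4, without control replicate 1 they were 4 and 18, and with DESeq2 0 and 1. Among neighbouring member peaks that were both called, 67 of 71 pairs had the same direction (94.4%), as had 196 of 215 pairs in chains of 2 to 4 peaks (91.2%), 139 of 168 pairs beyond that gap but within 50 kb (82.7%) and 131 of 195 pairs farther apart (67.2%). Over all neighbouring pairs, called or not, dense clusters did not stand first. The sign was shared by 57.9% of 1837 pairs in dense clusters, 60.9% in chains of 2 to 4 peaks, 55.9% of pairs beyond that gap but within 50 kb and 53.7% of those farther apart. Pearson's r of the log2 fold changes was 0.231, 0.279, 0.165 and 0.0976 in the same order, across pairs, which share libraries and are not independent. A further 15 clusters passed with no single peak passing, 8 higher and 7 lower.

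**Figure D5:**
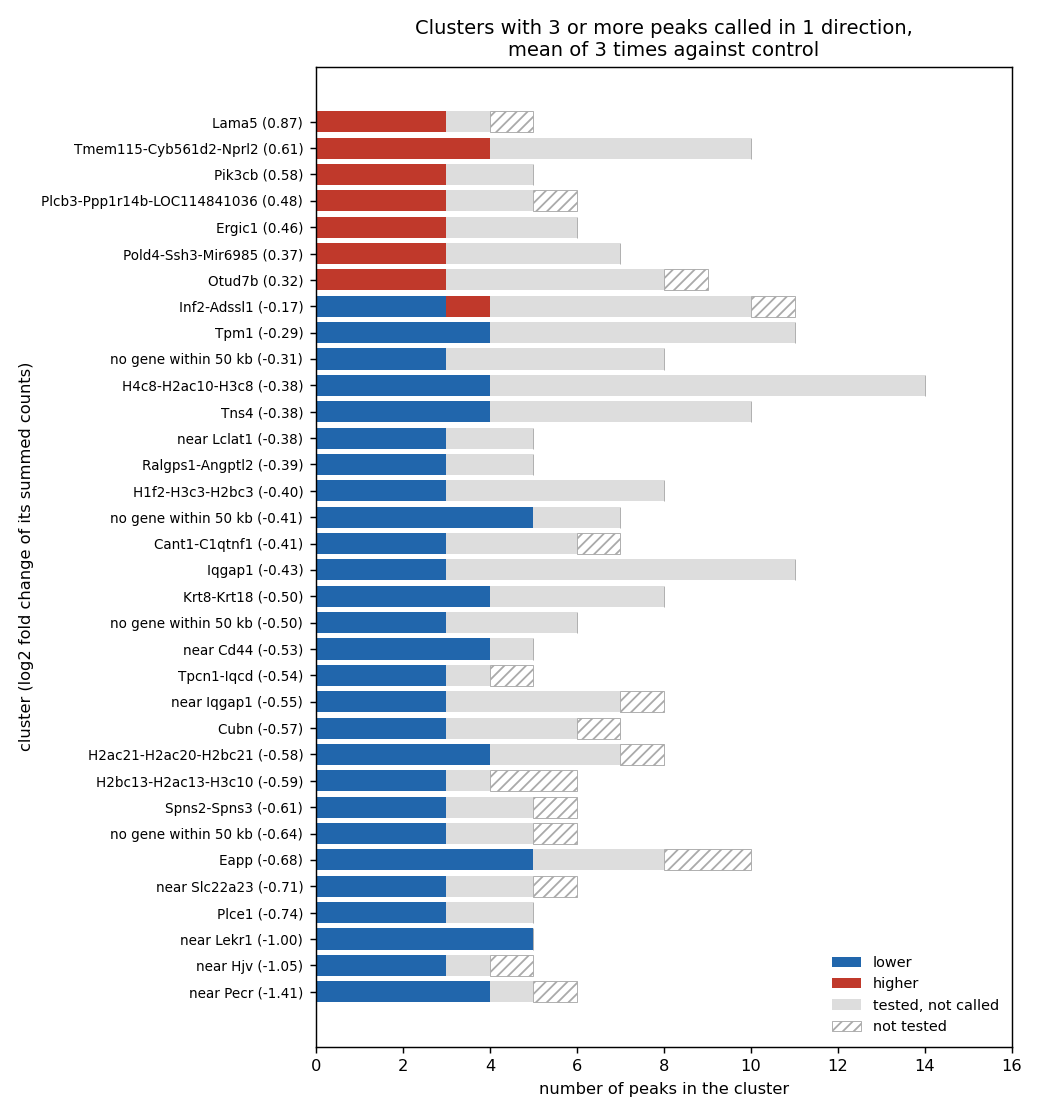
Number of peaks called lower, called higher, tested and not called, or not tested, in 34 of the 35 clusters with 3 or more peaks called in 1 direction, ordered by the log2 fold change of their summed counts (in brackets). The 27 drawn clusters with 3 or more lower peaks fill the lower part, and the cluster near Lekr1 has every tested peak lower.

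Krt8-Krt18, 1 of these 35 clusters (chr15:102002854-102028538), covers the paired keratins of simple epithelia with 8 peaks, which summed to 822 and 685 CPM in untreated cells, 582 and 625 after 24 h, 544 and 496 after 48 h, and 461 and 457 after 72 h. Its level was lowest at 72 h and all eribulin libraries lay below both controls (log2 fold change -0.50, SE 0.0748, adjusted p = 8.04e-09). The Krt8 promoter peak went from 212 and 168 CPM in untreated cells, 139.8 and 143 after 24 h, 111 and 113 after 48 h, and 87.8 and 91.0 after 72 h (log2 fold change -0.71, SE 0.138, adjusted p = 7.54e-05). The Krt18 promoter peak had 24.8 and 16.8 CPM in untreated cells, 11.9 and 25.9 after 24 h, 26.5 and 18.8 after 48 h, and 32.4 and 28.2 after 72 h, values that overlap between groups (log2 fold change 0.29, SE 0.346, adjusted p = 0.606). Clusters also fell in Iqgap1, a scaffold of the cortical cytoskeleton (-0.43, 11 peaks), and beside it (-0.55, 8 peaks), near Cd44, the hyaluronan receptor (-0.53, 4 of 5 peaks), in Tns4, a focal adhesion protein (-0.38, 4 of 10 peaks), and in Tpm1, tropomyosin-1 (-0.29, 4 of 11 peaks, adjusted p = 0.183 without control replicate 2). Clusters with 3 or more peaks higher included Pik3cb, a catalytic subunit of phosphoinositide 3-kinase (0.58), Plcb3-Ppp1r14b-LOC114841036 (0.48), Ergic1 (0.46), Pold4-Ssh3-Mir6985, with the cofilin phosphatase Ssh3 (0.37), and Otud7b, a deubiquitinase (0.32). Without its highest peak, Otud7b gave 0.09 with an adjusted p of 0.44.

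The single member peaks named below were picked as the largest changes, so their size cannot be set against that of their clusters. Of 1420 member peaks at or above the median CPM of all tested peaks, 93 rose (6.55%) and 142 fell with no overlap between control and eribulin libraries, beside 861 (8.13%) and 844 (7.97%) of all 10596 such peaks. The difference between these shares was not tested. After that in Ip6k3, the next rises were a peak in the cluster near Slc44a3 with 16.5 and 12.2 CPM in untreated cells, 61.4 and 58.7 after 24 h, 68.8 and 63.3 after 48 h, and 46.2 and 47.1 after 72 h (log2 fold change 2.03), one in Tns3, a focal adhesion protein, at chr11:8463086-8463675 (1.85), and the Ssh3 promoter peak (1.71). The Tns3 peak stood at 35.8 and 18.3 CPM in untreated cells, 78.4 and 115 after 24 h, 74.1 and 92.4 after 48 h, and 87.8 and 87.8 after 72 h. For both peaks every eribulin library lay above both controls, as the choice of these peaks required. The others of the 10 largest rises lay in or by Sfxn3 (1.70), Ergic1 (1.57), Vasn (1.54), the Wnt co-receptor gene Lrp5 (1.40), Mir146b (1.34) and Osbp (1.34). The largest falls outside the clusters near Pecr, Lekr1 and Hjv were a peak by Socs3 at chr11:117939713-117940154, with 93.5 and 62.7 CPM in untreated cells, 18.8 and 28.6 after 24 h, 34.4 and 37.6 after 48 h, and 16.2 and 28.2 after 72 h (log2 fold change -1.47), one in Plce1 (-1.24), one in Ralgapa2 (-1.19) and one with no gene nearby at chr10:21776507-21776945 (-1.17). The Socs3 peak fell, while the summed counts of its cluster of 13 peaks did not pass. Without the highest peak of that cluster the sum passed as lower (-0.21, adjusted p = 0.0332). Of these 20 peaks, 14 passed with DESeq2, those in or by Ergic1, Lrp5, Mir146b, Osbp and Plce1 and that on chromosome 10 being lost, and 15 passed without control replicate 2.

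Calls were counted by place in the gene, and the difference between places was not tested. Over the 3 times, member peaks at promoter windows were 37 higher and 29 lower of 378, and member peaks outside genes were 54 higher and 147 lower of 975, with a median log2 fold change of 0.07 and -0.16. Promoter peaks elsewhere in the genome were 640 higher and 86 lower of 4910 and peaks outside genes elsewhere 371 and 837 of 6572, medians of 0.21 and -0.15. The lower promoter peaks of the dense clusters lay in part at histone, small nuclear RNA and transfer RNA genes: without the 19 clusters that hold such genes, 35 promoter peaks were higher and 13 lower of 336. Without control replicate 2 the member counts were 5 and 11 of 384 at promoters, where the balance turned, and 12 and 38 of 1000 outside genes. Without control replicate 1 they were 23 and 18, and 30 and 92. With DESeq2 they were 3 and 6, and 4 and 16, and on thinned libraries 15 and 17, and 22 and 83, again with more lower than higher at promoters. By time, member promoter peaks were 17 higher and 31 lower after 24 h, 28 and 29 after 48 h, and 45 and 14 after 72 h. Member peaks away from promoters were 149 and 117, 103 and 164, and 90 and 153 in the same order, of 2051. Promoter peaks outside the dense clusters were 306 and 135, 413 and 58, and 725 and 34, of 4910. Other peaks outside them were 893 and 693, 746 and 896, and 590 and 1015, of 13853. The drift toward higher at promoters and lower elsewhere was therefore also present outside the clusters.

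Of the 205 clusters without a promoter peak, 22 were higher and 60 lower over the 3 times, of the 126 with 1 promoter peak 19 and 19, and of the 96 with 2 or more 21 and 17. Of the 91 clusters that overlap no protein-coding or microRNA gene 7 were higher and 34 lower, of the 91 lying whole in 1 gene 15 and 16, and of the 120 with 2 or more protein-coding genes 30 and 25. Without control replicate 2 the clusters without a promoter peak gave 4 and 24 and those with 2 or more gave 7 and 7. Beside these counts, 14.5% of all dense clusters were higher and 22.5% lower, and 9.84% and 10.1% of all chains tested. Peaks outside the dense clusters also leaned higher at promoters and lower outside genes, as given above, so the split is not particular to clusters. These kinds of cluster were compared by counts only, and the difference between them was not tested.

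The clusters of histone genes were lower as a set. All 5 clusters holding replication-dependent histone genes were lower over the 3 times and at each time alone, with log2 fold changes over the 3 times of -0.38 to -0.59. Over the 3 times 10.1% of all chains and 22.5% of all dense clusters were lower. Chains of 2 to 4 peaks with a CPM in the range of the dense clusters were lower in 22.5%. The 5 histone clusters had a median of 515 CPM, against 270 over all dense clusters. Over the 3 times 5 of 5 also passed on libraries thinned to 1 depth, with DESeq2 and without each control library, where the lone control is assumed to vary like the other groups. At single times fewer passed: with DESeq2 2 of 5 at 24 h and 1 of 5 at 72 h, the same times giving 3 of 5 and 2 of 5 without control replicate 2, and 72 h giving 2 of 5 without 72 h replicate 1. H4c8-H2ac10-H3c8 (chr13:23531060-23586150, 15 histone genes and 14 peaks, 11 at promoters) stood at 1234 and 1322 CPM in untreated cells, 892 and 1091 after 24 h, 893 and 904 after 48 h, and 1095 and 1050.0 after 72 h. The cluster with H3c14, whose promoter is printed above (chr3:96219674-96247382), stood at 610.5 and 746 CPM in untreated cells, 434 and 468 after 24 h, 478 and 379.5 after 48 h, and 475 and 528 after 72 h (log2 fold change -0.58, SE 0.0765, adjusted p = 9.14e-12). In both, all 6 eribulin libraries were below the controls. The next counts are small, and 22.5% of all dense clusters were lower and 14.5% higher beside them. Clusters with small nuclear RNA genes were lower in 5 of 8 and higher in none, Eapp with 7 such genes among them (-0.68, adjusted p = 6.96e-18), and those with transfer RNA genes were lower in 4 and higher in 2 of 8. All are multi-copy genes, so their reads are uncertain as said of the cluster near Pecr. Without these 19 clusters, 60 clusters were higher and 84 lower of 408.

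Of the gene lists, those of epithelial-mesenchymal transition reached few clusters. Of 13 transcription factors of the transition only Runx1 lay in a dense cluster, with overlapping values in all groups (418 and 495 CPM in untreated cells, 431 and 474 after 24 h, 477 and 464 after 48 h, and 447 and 473 after 72 h; log2 fold change -0.01, SE 0.0839, adjusted p = 0.948). Epithelial genes lay in 3 clusters: Krt8-Krt18 fell, Mettl27-Cldn4, with the tight junction claudin-4, rose (0.50, adjusted p = 0.00141, and 0.182 without control replicate 2), and Jup, plakoglobin, gave 0.22 (adjusted p = 0.117). Mesenchymal and matrix genes lay in 4 clusters, none of which edgeR or DESeq2 called over the 3 times, with 1 at an unadjusted p below 0.05: S100a3-S100a2-S100a4 (-0.05), Col4a2 (0.12), Col18a1 (-0.08) and Itga5 (-0.26). The median over the list's clusters was 0.22 for the epithelial and -0.06 for the mesenchymal list, against -0.04 over all 427.

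Beside the lists below, 14.5% of all dense clusters were higher and 22.5% lower, and counts this small do not show that a list stands apart. AP-1 and immediate early genes lay in 11 clusters, 0 higher and 2 lower by edgeR and 1 called by DESeq2, with 5 at an unadjusted p below 0.05 and a median of -0.04. Besides Jun, the cluster with Zfp36, which encodes the mRNA-destabilising protein tristetraprolin, was lower (-0.28, adjusted p = 0.00788, and 0.0733 and 0.0934 without control replicates 1 and 2). Fosb-Ercc1 (-0.09), Drap1-AI837181-Fosl1 (0.09) and Socs3-Pgs1 (-0.15) did not pass. Genes of the cytoskeleton and of adhesion lay in 15 clusters, 2 higher and 4 lower, with a median of -0.08. Myh9, non-muscle myosin IIA (0.21, adjusted p = 0.0202, and 0.229 and 0.0994 without control replicates 1 and 2), and Plec, the cytolinker plectin (0.26, adjusted p = 0.00485, and 0.103 and 0.0606 without them), were higher. Among the lower were Tpm1, Lamc1, the laminin gamma-1 chain (-0.46, adjusted p = 0.122 without control replicate 2), and Sirt4-Pxn, with paxillin (-0.45). The TGF-beta list gave 1 higher of 2, the target gene Id1 (0.42, adjusted p = 0.00879, and 0.394 without control replicate 2), while Smad3 gave -0.02. The lists of YAP targets (Ccn1, Tead1), of microtubules and mitosis (Lmbr1l-Tuba1b-Tuba1a, Btbd19-Tctex1d4-Plk3) and of p53 targets (Ccdc9-Inafm1-Bbc3, Lmnb2-Gadd45b) had 2 clusters each, of which edgeR and DESeq2 called none and none had an unadjusted p below 0.05. Markers of other cell types lay in 0 clusters.

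Between 24 and 72 h the clusters shifted mainly downward, and by edgeR alone those with several promoters upward. DESeq2 called 2 clusters higher and 10 lower, but 0 of the 96 with 2 or more promoter peaks in either direction. In the test of 72 h against 24 h, 18 clusters were higher and 65 lower, 19.4% of 427 against 7.74% of all chains tested (3.61% higher, 4.12% lower). Chains of 2 to 4 peaks with a CPM in the range of the dense clusters were 7.14% higher and 11.5% lower, against 4.22% and 15.2% of dense clusters. The difference between these sets was not tested. Member peaks were 44 higher and 92 lower, 5.6% against 4.71% of all peaks (2.32% higher, 2.39% lower). Clusters without a promoter peak were 4 higher and 48 lower of 205, those with 1 promoter peak 2 and 15 of 126, and those with 2 or more 12 and 2 of 96. None of the 91 clusters whole in 1 gene was higher and 22 were lower. At promoter peaks outside the dense clusters 297 were higher and 11 lower of 4910, and at other peaks outside them 151 and 404 of 13853. At member promoter peaks 22 were higher and 6 lower of 378, and at other member peaks 22 and 86 of 2051. The whole count fell to 42 and 49 without 24 h replicates 1 and 2, to 35 and 38 without 72 h replicates 1 and 2, and to 12 with DESeq2. Clusters with 2 or more promoter peaks then gave 4 and 1, 3 and 1, 1 and 1, and 5 and 0 higher and lower in the order of those libraries.

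The examples that follow fall outside the rule for named genes and were picked for their values. Near Rab4a, a gene of endosome recycling (chr8:123753225-123769055), the level was 326 and 275 CPM in untreated cells, 282 and 265 after 24 h, 170.2 and 196 after 48 h, and 139 and 150.4 after 72 h. The 24 h libraries overlapped the controls and those of 72 h lay below all of them (log2 fold change -0.92, SE 0.153, adjusted p = 2.38e-06, for 72 h against 24 h). Inpp4b, a phosphoinositide phosphatase, gave -0.91 and Tead1, a partner of YAP, -0.70 in the same test. Col18a1, the gene of collagen XVIII, moved in opposite directions, with 339 and 342 CPM in untreated cells, 431 and 408 after 24 h, 273 and 351 after 48 h, and 260.2 and 255 after 72 h. It was higher at 24 h (0.30, adjusted p = 0.044) and lower at 72 h (-0.40, adjusted p = 0.021), and with 1 other cluster, at chr13:110896619-110943251 with no gene within 50 kb, it is 1 of 2 of the 427 to be called in both directions. Without control replicate 2 neither call of Col18a1 passed (adjusted p = 0.251 and 0.137), and without control replicate 1 the call at 24 h did not (0.153). Rises from 24 to 72 h included Dbp-Sphk2-Rpl18 (0.71), the cluster of the apoptosis gene Bbc3 (0.63), the stretch near Mir23a (0.57) and that of the AP-1 gene Junb (0.53).

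MicroRNA genes lay in 18 clusters, 7 higher and 3 lower over the 3 times, beside 14.5% and 22.5% of all dense clusters. Without control replicate 2 they were 1 and 0, and DESeq2 called none. The arms printed next belong to the cluster by Mir146b, which holds 2 of the peaks that rose, and to the cluster with 3 microRNA genes in a row, Mir99b, Mirlet7e and Mir125a, the most in any dense cluster. They are mature sequences from RefSeq on GRCm38.p6 with the seed, bases 2 to 8, in capitals, at chr19:46342790-46342811, plus strand, chr17:17830194-17830215, plus strand, chr17:17830366-17830387, plus strand and chr17:17830817-17830840, plus strand, and no 2 of them share a seed.
mmu-miR-146b-5p: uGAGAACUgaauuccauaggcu
mmu-miR-99b-5p: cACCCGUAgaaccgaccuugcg
mmu-let-7e-5p: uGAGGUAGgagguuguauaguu
mmu-miR-125a-5p: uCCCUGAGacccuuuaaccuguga
The cluster Fbxl15-Cuedc2-Mir146b (chr19:46328167-46357193), which holds miR-146b, a brake on inflammatory signalling, stood at 274 and 231 CPM in untreated cells, 317 and 349.7 after 24 h, 321 and 317 after 48 h, and 354 and 389.9 after 72 h. Both controls lay below all eribulin libraries (log2 fold change 0.46, SE 0.103, adjusted p = 0.000219), and the adjusted p was 0.212 without control replicate 2. The cluster of Mir99b, Mirlet7e and Mir125a with Spaca6 and Has1 (chr17:17824038-17857825) had 385 and 389 CPM in untreated cells, 354 and 333 after 24 h, 278 and 342 after 48 h, and 333 and 316 after 72 h (log2 fold change -0.25, SE 0.0923, adjusted p = 0.035), and the adjusted p was 0.0994 and 0.297 without control replicates 1 and 2. Binding near a microRNA gene was measured here, and the microRNAs themselves were not.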

How the data were processed

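ZEB1 CUT&RUN libraries were made with a CUTANA kit and sequenced as paired ends of 76 bases, per the labels' protocols. The submitters' processing notes name the build mm10 and, with no role or order, Bowtie2 2.2.6, MACS2 2.1.1, featureCounts, cutadapt 2.4, deepTools, bedtools 2.30.0 and Picard. The authors deposited whole-number read counts per consensus peak for 8 libraries, and 1 peak list per group with each peak's fold over IgG and its -log10 q value; the fold values are the authors' and only describe peaks here. The sources used here do not say how reads with several matches were counted, and no spike-in was used here.

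Peaks were chained as described in the report, and counts were also summed per chain. Peaks and chains were filtered with filterByExpr, scaled by TMM and fitted over all 8 libraries with edgeR 4.0.16 (R 4.3.3) by the quasi-likelihood test, with Benjamini-Hochberg adjusted p-values over all 21192 peaks or 14387 chains tested and a threshold of 0.05. Controls were compared with each time and with the mean over the 3 times, and 72 h was compared with 24 h. Alternatives included DESeq2 1.42.0, other scalings and filters, thinned libraries, summed pairs, a replicate block and each library left out. The scripts were tested on simulated data. Genes came from the RefSeq table of GRCm38.p6, in which 257 of 259 list members were found, within 50 kb of a peak.

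The rule named the 10 clusters with the most peaks, the 8 largest rises and 8 largest falls among called clusters without overlap of control and eribulin values, the 10 largest rises and 10 largest falls of such peaks at or above the median CPM, clusters with 3 or more peaks called in 1 direction, and up to 4 clusters per gene list; other names were chosen after their values were seen. A few named results are not reported here. The members and gene lists were chosen with earlier results of these data known. Same-numbered replicates did not deviate together (correlations over peaks from -0.0267 to 0.0032), so the numbers were not used as pairs.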

Additional observations from a re-analysis of the deposited data

Results flagged for a closer look

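The effects of eribulin at 72 h and at 24 h differed in 2 of the clusters named for their fall, by edgeR's quasi-likelihood test of 72 h against 24 h. In the cluster near Pecr the log2 difference was -0.754 (adjusted p = 3.33e-09), with both 72 h libraries below both 24 h libraries. In the cluster near Lekr1 it was -0.823 (adjusted p = 8.45e-06), again with both 72 h libraries below both of 24 h.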

How the results depend on the processing

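Counts of calls varied with the libraries and the tool. None of the 16 clusters and 20 peaks named for their rise or fall changed direction under the alternatives run on them. With DESeq2, called clusters numbered 17, 17, 26 and 42 at 24, 48 and 72 h and over the 3 times, and 12 for 72 h against 24 h, and called member peaks numbered 16, 12, 17 and 40 in the first 4 comparisons. On thinned libraries, clusters numbered 80 at 24 h, 73 at 48 h and 52 for 72 h against 24 h, and member peaks 120, 113, 177 and 215 at 24, 48 and 72 h and over the 3 times. With summed pairs, 46 clusters were called for 72 h against 24 h. Leaving out 1 library gave 54 to 124 clusters at 24 h, 48 to 122 at 48 h, 63 to 138 at 72 h, 58 to 150 over the 3 times and 35 to 84 for 72 h against 24 h. It gave 83 to 337, 74 to 339, 96 to 328 and 106 to 426 member peaks in the first 4 comparisons. The share of counts in the clusters differed by -0.637 to -0.482 percentage points with 1 library left out. The fit with a replicate block, in which the numbers do not pair the samples, called 153 clusters and 427 member peaks over the 3 times. Each group has 2 libraries, and the shallowest holds 326944 counts, which limits calls at single low peaks.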
